A study of Homo sapiens with 28 samples.

Results

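The comparison described here sets a truncated form of ARID1A, the CBR truncation mutant, against full-length wild-type ARID1A (WT) in AN3CA cells, a human endometrial carcinoma line in which each construct was expressed. Its members are the 4 libraries labelled CBR replicates 1 and 2 and WT replicates 1 and 2, of 28 libraries in the series, and the features are the 14220 genes with enough reads to test of 26346 counted. Empty vector replicates 1 and 2 served as the background of the same cells without added ARID1A, and no group received a drug or other treatment. The labels call CBR a truncation without giving the residues it keeps, and they name no clone, promoter of the construct or separate cultures. Every p-value below therefore rests on the spread between the 2 libraries of a group, estimated over all 14 groups of the fit. This spread may be technical. The polyA RNA was sequenced as mRNA libraries, and all values are reads per gene, shown as CPM (read counts scaled to 1 common library size, with a correction for library composition).

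ARID1A is the large subunit that defines the canonical BAF form of the SWI/SNF family, complexes that use ATP to move or evict nucleosomes and so open enhancers and promoters. Its N-terminal part is long and disordered and holds the AT-rich DNA-binding (ARID) domain, while the conserved C-terminal part, usually called the core-binding region and abbreviated CBR, contacts the other subunits and joins ARID1A to the complex. ARID1A is one of the genes most often inactivated in endometrial carcinoma. Setting CBR against WT therefore asks which RNA changes seen with the full-length protein were also seen with the truncated one, which were not, and which appeared with the truncated one alone.

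Gene reads ranged from 16568010 to 27867107 per library over the series, with 21198687 and 19930477 for CBR, 17376157 and 21710967 for WT and 21561265 and 21570351 for the 2 empty vector libraries. Between 84.5% and 87.8% of stranded gene reads in these 6 libraries lay on the counted strand; the other 2 empty vector libraries had over 90% and were kept apart. Reads outside genes made up 13.2% and 13% in CBR, 11.1% and 11.5% in WT and 11.9% and 13.5% in the empty vector libraries, and the part of this in the results was not tested. Of 12 endometrial carcinoma identity markers, SOX17, ESR1 and PGR had no read in any of the 6 libraries. A mean of 1 CPM or more was reached by 6 in CBR, 6 in WT and 5 with the empty vector. HOXA10, for one, had 8.75 and 8.27 CPM with the empty vector, 11.8 and 13.3 with WT and 5.9 and 5.83 with CBR. All 12 identity markers together summed to between 39.6 and 43.3 CPM in CBR, 82.8 and 82.9 CPM in WT and 41.9 and 42.8 CPM with the empty vector. KRT18 was the highest of them, with means of 20.5, 46.0 and 12.4 CPM. EMX2 and MSX1 went the other way between WT and empty vector. EMX2 had 0.527 and 0.375 CPM with WT and 2.58 and 2.52 with the empty vector, and MSX1 6.97 and 7.83 and 11.9 and 12.1. Leukocyte markers (14 genes) summed to between 4.93 and 5.03 CPM in CBR, 15.6 and 17.2 CPM in WT and 1.86 and 2.92 CPM with the empty vector, with PTPRC, CD3D, CD8A, MS4A1 and CSF1R without a read in CBR.

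ARID1A reads were higher with both constructs than with the empty vector. They stood at 272 and 296 CPM with the empty vector, 702 and 764 with WT and 1035 and 998 with CBR, and CBR exceeded WT (log2 fold change 0.47 ± 0.081, adjusted p = 1.69e-05; here and below the first number is the fitted log2 difference with its standard error, and p comes from edgeR's quasi-likelihood F test, Benjamini-Hochberg adjusted over all genes tested, with n = 2 libraries per group). Reads of the construct and of the cells' own ARID1A cannot be told apart in these counts, and CPM is not corrected for the shorter construct, so this check shows ARID1A reads above the empty vector level in both CBR libraries and not how much protein was made. ARID1B, the paralog that takes ARID1A's place in other BAF complexes, was lower than the empty vector with both proteins and did not pass the test between them, at 99.6 and 104 CPM with the empty vector, 65.6 and 68.7 with WT and 71.8 and 68.6 with CBR (CBR against WT log2 fold change 0.06 ± 0.074, adjusted p = 0.482).

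Of 28 tested genes for BAF subunits, 9 were called higher and 6 lower in CBR than in WT, with a median log2 difference of 0.01, where over all tested genes 29.4% were called higher and 33.1% lower. BCL7A fell by 1.12 on the log2 scale, from 96.2 and 98.7 CPM with WT to 45.4 and 44.3 with CBR, and PHF10, a subunit of the PBAF form, had -0.77 (adjusted p = 3.51e-11). GLTSCR1L, a subunit of the non-canonical form, had 41.6 and 42.3 CPM with the empty vector, 27.2 and 28.6 with WT and 43.8 and 41.3 with CBR, which was -0.59 with WT (adjusted p = 2.61e-06) and 0.02 with CBR (adjusted p = 0.861) against the empty vector. The ATPase SMARCA4 (0.06 ± 0.042, adjusted p = 0.211) and the core subunit SMARCB1 (-0.14 ± 0.078, adjusted p = 0.111) did not pass the test.

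CBR and WT differed across much of the transcriptome, and mostly by small amounts. Called genes made up 62.5% of those tested, 4182 higher and 4704 lower in CBR, while those that also differed by 2-fold or more made up 12.2%, 668 higher (4.7%) and 1073 lower (7.55%). A second fit that ignored the strand of the reads called 586 of the 668 and 1005 of the 1073. Against the empty vector, WT raised 1427 genes at least 2-fold (10% of those tested) and lowered 552 (3.88%), and CBR raised 1015 (7.14%) and lowered 466 (3.28%). These 3 comparisons share libraries, so the classes built from them below describe the genes and carry no test of their own. In RNA from whole cultures, fewer cells of a kind and less RNA per cell cannot be told apart.

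**Figure D1:**
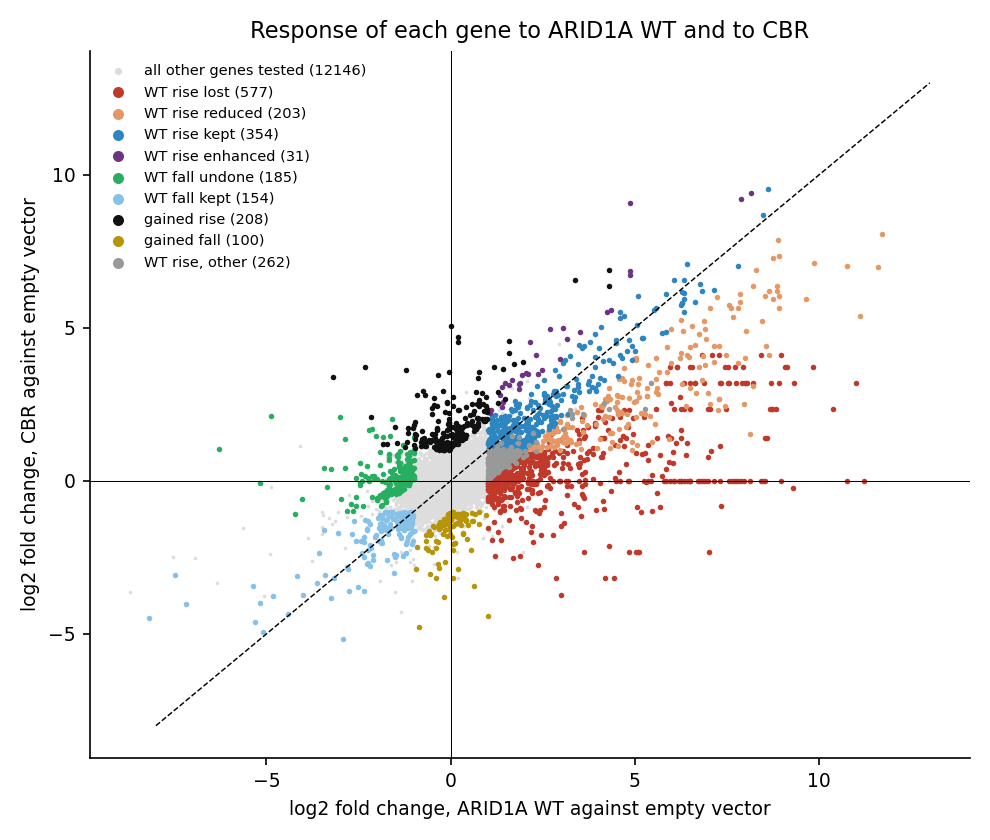
Each point is 1 of the 14220 tested genes, with the log2 fold change of WT over empty vector replicates 1 and 2 on the x axis and that of CBR over the same libraries on the y axis, coloured by class. Lost genes lie along the horizontal zero line right of the threshold, kept genes along the diagonal, and the 208 genes gained as rises mostly above the zero line between the WT thresholds. Points in horizontal rows are genes with few or no reads, whose fitted values depend on the prior count.

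Each WT rise was placed by what was left of it in CBR. Lost rises (577 of 1427, 40.4%) were at least 2-fold lower in CBR than in WT and not called 2-fold above the empty vector in CBR. Reduced rises (203, 14.2%) were at least 2-fold lower than in WT but still 2-fold above the empty vector, which by construction needs a WT rise of nearly 4-fold or more. Kept rises (354, 24.8%) were 2-fold above the empty vector and within 2-fold of WT, enhanced rises (31, 2.17%) were at least 2-fold above WT as well, and the remaining 262 (18.4%) fell between these definitions. The 552 WT falls divided into 185 undone (33.5%), 21 reduced, 154 kept (27.9%), 5 enhanced and 187 others (33.9%). Finally, 208 genes rose and 100 fell at least 2-fold with CBR against both WT and the empty vector, without a WT change of that size. These are called gained. They are not particular to CBR: the delIDR1 truncation mutant, described below, raised 59.6% of the 208 at least 2-fold.

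The classes differed in size of change as their definitions require. Lost genes had a median log2 change of 2.25 with WT and 0.16 with CBR against the empty vector, reduced genes 4.84 and 2.5, kept genes 1.95 and 1.84, enhanced genes 2.16 and 3.51, and gained rises 0.02 and 1.63. With genes without a read in a group set at 3 counts over that group, the medians were 2.22 and 0.0042 for lost, 4.55 and 2.19 for reduced, 1.90 and 1.83 for kept, 1.95 and 3.48 for enhanced and 0.0062 and 1.63 for gained genes. Genes near a threshold were much alike: PMP22, at -1.002 between CBR and WT, counted as 2-fold lower, and CDK6, at -0.994, did not. Among the 577 lost genes, 425 were not called against the empty vector in CBR, 89 were still called above it by less than 2-fold, and 63 were called below it, 17 of them by 2-fold or more. No read was found in either CBR library for 41 lost genes and in either empty vector library for 84. The 1073 genes lower in CBR held the 577 lost and 203 reduced rises, 100 gained falls, 5 enhanced falls and 188 of no class, of which 139 were called above the empty vector in WT and 127 below it in CBR.

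How much of a WT rise was present in CBR differed with the size of that rise. Over the 1427 rises the median share of the CPM difference between WT and empty vector that CBR also showed was 23.4% (quartiles 4.35% and 58.7%). The median share was 33.2% for the 684 rises of 2- to 4-fold, 26.8% for the 382 of 4- to 16-fold and 9.73% for the 361 of 16-fold or more. Kept genes made up 26.3%, 33.5% and 12.7% of these bins and lost genes 35.7%, 43.7% and 46.0%. By level in the empty vector libraries, the median share was 19.3% under 0.5 CPM, 27.1% from 0.5 to 5 CPM and 26.4% above. The share and the WT rise are computed from the same WT libraries, so this is a description without a test.

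**Figure D2:**
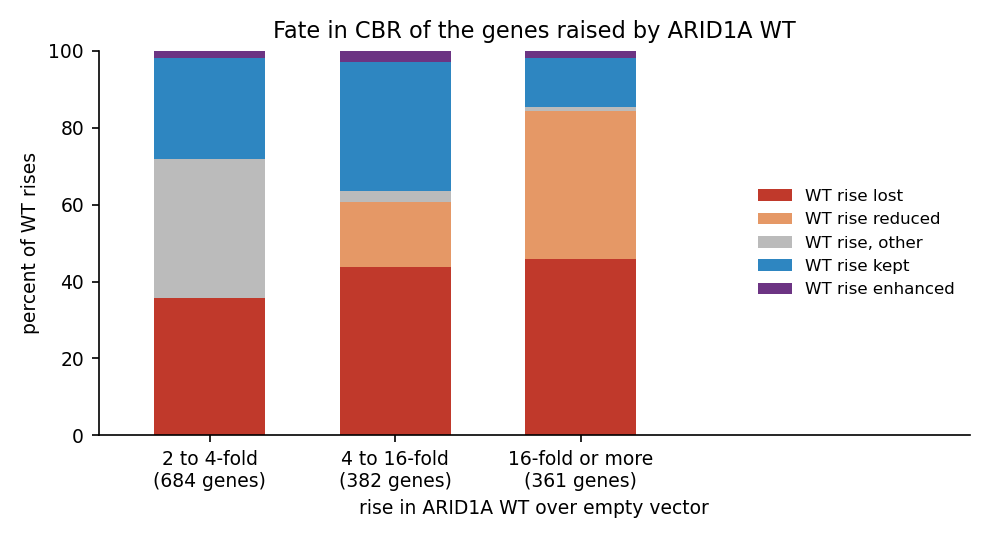
Rises with WT are grouped by their size over the empty vector (x axis, 684, 382 and 361 genes), with the percent of each bin in each class on the y axis. Lost genes make up 35.7%, 43.7% and 46.0%, and kept genes 26.3%, 33.5% and 12.7%, from the smallest to the largest rises.

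Lost rises included secreted matrix proteins that were high with WT and at or near the empty vector level with CBR. MMP2, the gelatinase that digests basement membrane collagen, had 0.0907 and 0.18 CPM with the empty vector, 88.8 and 86.1 with WT and 0.132 and 0.0932 with CBR (log2 fold change -9.52 ± 0.18, adjusted p = 6.93e-24). LAMB1, the beta 1 chain of laminin, had 8.25 and 8.32 CPM with the empty vector, 325 and 330.4 with WT and 8.1 and 7.97 with CBR (log2 fold change -5.35 ± 0.075, adjusted p = 2.09e-26), so CBR lay just under the empty vector while WT stood far above both. COL12A1, a collagen that sits on the surface of collagen fibrils, had 0.227 and 0.18 CPM with the empty vector, 34.5 and 32.7 with WT and 0.044 and 0.186 with CBR (-8.14).

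Several lost genes had no or almost no read with CBR. CACNG4, an auxiliary subunit of calcium channels and AMPA receptors, had 0 and 0 CPM with the empty vector, 12.5 and 13.7 with WT and 0 and 0 with CBR, at least 193.9-fold higher in WT than in CBR when CBR is set at 3 counts over the group. CD44, the hyaluronan receptor, had 0 and 0 CPM with the empty vector, 10.7 and 8.81 with WT and 0 and 0 with CBR, at least 141.8-fold higher in WT than in CBR on the same floor. PTPRO, a receptor tyrosine phosphatase, had 0.181 and 0.0899 CPM with the empty vector, 18.3 and 18 with WT and 0 and 0.0466 with CBR, a ratio of WT over CBR of 801.4 (95% counting interval 143.4 to 3.17e+04). In all of these genes the 4 libraries without WT were near 0 and both WT libraries were high. AMIGO2, an adhesion protein of the cell surface, had 0 and 0.045 CPM with the empty vector, 11.7 and 9.47 with WT and 0.088 and 0.0466 with CBR. SOST, which encodes the WNT inhibitor sclerostin, had no read with the empty vector or CBR and 1.35 and 0.797 CPM with WT.

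Some lost genes fell below the level of empty vector replicates 1 and 2. TNC, the matrix glycoprotein tenascin C, had 7.66 and 6.74 CPM with the empty vector, 135 and 147 with WT and 1.54 and 1.72 with CBR, which was -6.43 against WT and -2.14 against the empty vector. PLK2, a polo-like kinase, had 4.58 and 4.36 CPM with the empty vector, 155 and 163 with WT and 2.07 and 2.33 with CBR. JUN, a subunit of the AP-1 transcription factor, had 39.6 and 37.3 CPM with the empty vector, 88.1 and 86.1 with WT and 15.1 and 15.3 with CBR (log2 fold change -2.51 ± 0.069, adjusted p = 1.14e-20; -1.33 against the empty vector). In these 3 genes the libraries of the groups did not overlap: WT was highest, empty vector replicates 1 and 2 in between, CBR lowest. In empty vector replicates 3 and 4, which were kept apart, JUN had 9.68 and 9.98 CPM, below CBR. CBR and WT libraries lay apart in all 577 lost genes, which the called 2-fold difference nearly requires, so it adds no support.

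The promoters of 6 members are shown as examples from the lost, reduced, kept and gained genes. They are the 250 bases before the annotated start in RefSeq on GRCh38.p14, written 5′ to 3′ on the gene's strand. PTPRO (chr12:15322258-15322507, plus strand), COL12A1 (chr6:75206054-75206303, minus strand) and AMIGO2 (chr12:47079952-47080201, minus strand) were lost, RUNX2 (chr6:45328080-45328329, plus strand) reduced, ISLR (chr15:74173460-74173709, plus strand) kept and SMPDL3B (chr1:27934750-27934999, plus strand) gained. Capitals mark a match on either strand to TGANTCA, the letters bound by AP-1, or GGAATG, the letters bound by TEAD factors.
PTPRO: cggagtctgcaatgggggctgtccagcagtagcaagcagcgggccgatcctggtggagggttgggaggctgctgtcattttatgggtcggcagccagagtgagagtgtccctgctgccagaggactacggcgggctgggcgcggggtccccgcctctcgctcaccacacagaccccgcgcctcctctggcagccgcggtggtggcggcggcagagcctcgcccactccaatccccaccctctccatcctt
COL12A1: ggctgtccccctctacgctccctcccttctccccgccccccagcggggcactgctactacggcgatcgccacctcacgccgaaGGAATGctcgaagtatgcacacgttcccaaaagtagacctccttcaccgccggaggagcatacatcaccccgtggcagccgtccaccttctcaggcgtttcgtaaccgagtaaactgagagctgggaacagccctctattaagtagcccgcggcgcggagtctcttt
AMIGO2: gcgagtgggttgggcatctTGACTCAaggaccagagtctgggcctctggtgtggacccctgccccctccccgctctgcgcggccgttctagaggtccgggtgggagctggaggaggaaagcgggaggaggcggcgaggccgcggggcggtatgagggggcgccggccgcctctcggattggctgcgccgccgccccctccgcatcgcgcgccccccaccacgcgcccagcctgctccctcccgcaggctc
RUNX2: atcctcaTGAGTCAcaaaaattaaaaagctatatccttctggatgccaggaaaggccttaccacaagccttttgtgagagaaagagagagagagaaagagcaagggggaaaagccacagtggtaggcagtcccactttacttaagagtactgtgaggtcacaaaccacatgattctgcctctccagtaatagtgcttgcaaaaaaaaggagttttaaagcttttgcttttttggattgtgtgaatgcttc
ISLR: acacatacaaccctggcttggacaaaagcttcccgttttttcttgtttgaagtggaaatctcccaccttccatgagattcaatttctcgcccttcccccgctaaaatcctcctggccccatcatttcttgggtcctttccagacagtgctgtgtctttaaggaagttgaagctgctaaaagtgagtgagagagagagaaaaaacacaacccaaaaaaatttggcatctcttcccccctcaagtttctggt
SMPDL3B: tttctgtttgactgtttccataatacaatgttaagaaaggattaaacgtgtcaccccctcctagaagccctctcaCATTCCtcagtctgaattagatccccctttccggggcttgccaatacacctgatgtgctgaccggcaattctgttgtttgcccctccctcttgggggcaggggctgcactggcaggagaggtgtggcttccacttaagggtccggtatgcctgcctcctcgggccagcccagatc
AMIGO2 and RUNX2 held TGANTCA, first base 231 and 243 bases before the start, and COL12A1 and SMPDL3B held GGAATG, 167 and 175 bases before it. PTPRO and ISLR held neither. These 6 were picked after their sequences and values were seen, so they do not compare the classes. Among the other promoters of lost, reduced, kept and gained genes looked up, only the kept ITGA5 held a match, GGAATG at 82 bases before the start. Of all 11042 tested genes with an entry in the table, 4.51% held TGANTCA and 11.0% GGAATG in the 300 bases from 250 before to 50 after the start, and a match describes only these letters. No share per class is given because under 80% of the genes of the main classes had an entry. The shares over all tested genes carry the same limit, with an entry for 77.7% of them. MMP2, LAMB1 and CACNG4 were among those not matched.

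Reduced rises kept a part of a large WT rise. ATP8B1, a phospholipid flippase, had 0.227 and 0.27 CPM with the empty vector, 70.1 and 70.4 with WT and 0.704 and 0.746 with CBR (-6.59 between CBR and WT). DCX, the microtubule-binding protein doublecortin of migrating neurons, had 0 and 0 CPM with the empty vector, 12.1 and 12.5 with WT and 0.308 and 0.14 with CBR (log2 fold change -5.73 ± 0.26, adjusted p = 2.65e-15). ADORA1, the adenosine A1 receptor, had 0.0907 and 0.225 CPM with the empty vector, 40 and 41 with WT and 1.06 and 0.793 with CBR (-5.44). In each of them both CBR libraries lay above both empty vector libraries but much closer to them than to WT. RUNX2, the transcription factor of bone formation, had 0 and 0 CPM with the empty vector, 15.6 and 18.6 with WT and 0.88 and 0.513 with CBR (-4.61). PLAU, the urokinase that activates plasminogen at the cell surface, had 0.861 and 1.12 CPM with the empty vector, 43.5 and 43.8 with WT and 2.24 and 2.52 with CBR (-4.20). COL1A1, the main chain of type I collagen, retained more, at 0.816 and 0.629 CPM with the empty vector, 88.4 and 90.2 with WT and 18.8 and 17.7 with CBR (log2 fold change -2.29 ± 0.092, adjusted p = 4.03e-17), a share of 19.8% of its WT rise. The part of the rise left in CBR thus varied among the reduced genes. AXL, a receptor tyrosine kinase linked to invasive states, had 3.4 and 2.79 CPM with the empty vector, 47.1 and 49.2 with WT and 6.6 and 6.34 with CBR (-2.90).

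Kept rises reached a like level with the truncated and the full-length protein. SYNPO, the actin-associated protein synaptopodin, had 2.45 and 2.47 CPM with the empty vector, 80 and 83.9 with WT and 82.2 and 84.1 with CBR, a difference between CBR and WT of 0.02 ± 0.061 (adjusted p = 0.795). LAMA5, the alpha 5 chain of laminin, had 158 and 151 CPM with the empty vector, 542 and 541 with WT and 564 and 558 with CBR (0.05 ± 0.069, adjusted p = 0.524). APOE, the lipid carrier apolipoprotein E, had 18.1 and 15.1 CPM with the empty vector, 180.2 and 168 with WT and 165 and 165 with CBR (-0.08 ± 0.078, adjusted p = 0.383). For these 3 genes the WT and CBR values lay close together and well above the empty vector. SLC15A2, a peptide transporter, had 0.227 and 0.225 CPM with the empty vector, 10.3 and 11 with WT and 10.6 and 11.5 with CBR.

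Other kept genes differed between the proteins by less than 2-fold. ISLR, a secreted immunoglobulin-domain protein, had 0 and 0 CPM with the empty vector, 1.58 and 2.62 with WT and 4.05 and 4.15 with CBR: CBR was at least 60.5-fold and WT at least 31.9-fold higher than the empty vector set at 3 counts over the group, and CBR exceeded WT (log2 fold change 0.93 ± 0.18, adjusted p = 0.000105). NPR1, the receptor for atrial natriuretic peptide, went the other way, at 0.136 and 0.18 CPM with the empty vector, 22.6 and 23.4 with WT and 12.1 and 12.3 with CBR (log2 fold change -0.92 ± 0.093, adjusted p = 3.61e-09). ITGA5, the alpha 5 subunit of the fibronectin receptor, had 0.453 and 0.539 CPM with the empty vector, 28.7 and 29 with WT and 34.8 and 34.9 with CBR (log2 fold change 0.27 ± 0.074, adjusted p = 0.00245), a call that was lost when all 4 empty vector libraries formed 1 group (adjusted p = 0.103). The matrix genes SPARC and COL3A1, chosen after their values were seen, were also kept while lower in CBR. SPARC, which binds collagen, had 31.3 and 30.2 CPM with the empty vector, 414 and 414 with WT and 293 and 293 with CBR (-0.50). COL3A1, a fibrillar collagen, had 124 and 111 CPM with the empty vector, 539.8 and 512 with WT and 333 and 331 with CBR (-0.66).

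Enhanced rises numbered 31. SLC17A7, the vesicular glutamate transporter, had 1.27 and 0.989 CPM with the empty vector, 5.03 and 5.11 with WT and 28.6 and 23.4 with CBR (log2 fold change 2.36 ± 0.11, adjusted p = 5.92e-16). ERBB3, a receptor of the EGF receptor family, had 4.26 and 4.27 CPM with the empty vector, 14.8 and 15.9 with WT and 38.2 and 38.1 with CBR (1.31). CD82, a tetraspanin, had 4.13 and 3.46 CPM with the empty vector, 13.2 and 14.1 with WT and 31.6 and 29.7 with CBR (1.16). In all 3 the libraries were ordered empty vector, WT, CBR without overlap. Naming by class asks that CBR and WT libraries lie apart. They did so in all 31 enhanced rises, which the called 2-fold difference nearly requires, so it adds no support.

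**Figure D3:**
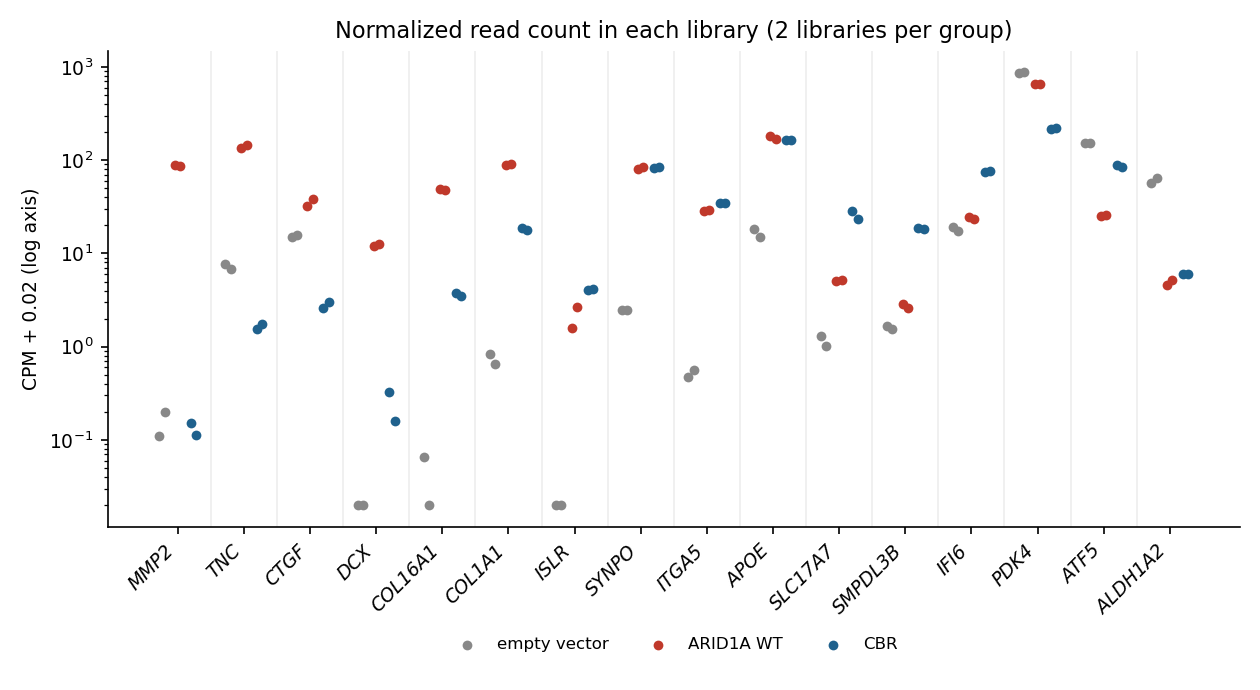
CPM of each of the 2 libraries per group (y axis, log scale after adding 0.02 CPM so that libraries without a read can be drawn) for example genes of each class, with empty vector, WT and CBR side by side. Among these groups, MMP2 and TNC are high with WT alone, kept genes such as SYNPO are high with both proteins, and gained genes such as SMPDL3B are high with CBR alone.

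Genes gained as rises with CBR stood apart in CBR from both other groups. SMPDL3B, a membrane phosphodiesterase acting on lipids, had 1.63 and 1.53 CPM with the empty vector, 2.87 and 2.58 with WT and 18.7 and 18.1 with CBR (log2 fold change 2.76 ± 0.11, adjusted p = 7.82e-17). SEMA3G, a secreted semaphorin, had 2.22 and 1.71 CPM with the empty vector, 3.69 and 3.42 with WT and 14.8 and 14.2 with CBR (2.03). HAP1, the huntingtin-associated protein, had 4.44 and 3.55 CPM with the empty vector, 4.68 and 4.69 with WT and 19.4 and 20.3 with CBR (2.08). SEMA3G was also above the empty vector with WT, by less than 2-fold (0.85, adjusted p = 0.000115), while HAP1 was not called (adjusted p = 0.19). C1R, a protease of the complement cascade, had 28.4 and 26.7 CPM with the empty vector, 20.7 and 19.9 with WT and 80.4 and 76.9 with CBR (1.96). ABCG1, a sterol exporter and a target of the LXR receptors, had 0.907 and 0.899 CPM with the empty vector, 0.351 and 0.562 with WT and 2.46 and 2.61 with CBR (2.42). For all 5 the lowest CBR library exceeded the highest of the other 4. Naming by class asked for this, and CBR and WT libraries lay apart in all 208 gained rises, so it adds no support.

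Genes gained as falls were within 2-fold of the empty vector with WT, or not called against it, and lower with CBR. PDK4, the kinase that switches off pyruvate dehydrogenase, had 854 and 873 CPM with the empty vector, 654 and 657 with WT and 214 and 224 with CBR (log2 fold change -1.58 ± 0.054, adjusted p = 1.5e-18). GAB2, an adaptor of receptor tyrosine kinases, had 13.9 and 14.4 CPM with the empty vector, 20.3 and 21.2 with WT and 2.82 and 3.08 with CBR (log2 fold change -2.82 ± 0.12, adjusted p = 8.76e-17). Both genes were lowest in CBR without overlap, which naming by class asks for. CBR and WT libraries lay apart in 99 of the 100 gained falls, which the called 2-fold difference nearly requires, so it adds no support. ATF3, a stress-induced transcription factor, had 18.3 and 21 CPM with the empty vector, 21.4 and 21 with WT and 4.8 and 4.85 with CBR. GADD45A, which restrains the cell cycle, had 54 and 48.8 CPM with the empty vector, 51.2 and 47.7 with WT and 17.8 and 16.7 with CBR. In empty vector replicates 3 and 4, which were kept apart, GADD45A had 11.3 and 12.5 CPM, below CBR. ATF3 had 11.3 and 12.5 CPM there, above CBR. The fall of GADD45A with CBR thus holds against empty vector replicates 1 and 2 only. FAS, the death receptor, chosen after its values were seen, had 14.6 and 13.5 CPM with the empty vector, 13.9 and 12.7 with WT and 4.58 and 3.4 with CBR. Its transcript overlaps ACTA2 in the genome. HSPD1, the mitochondrial chaperonin, had 696 and 647 CPM with the empty vector, 715 and 688 with WT and 326 and 336 with CBR (-1.08).

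Falls with WT were undone in CBR for 185 genes. Undone means at least 2-fold higher in CBR than in WT and not called 2-fold below the empty vector, so a part of the fall can remain. ATF5, a transcription factor of the stress response, had 153 and 153 CPM with the empty vector, 25.3 and 25.8 with WT and 88.1 and 83.7 with CBR (1.75). Part of the ATF5 fall thus remained in CBR. CEBPG, which forms dimers with ATF4, had 167 and 161 CPM with the empty vector, 77.1 and 77.6 with WT and 167 and 172 with CBR (1.13). NXPH4, a secreted neurexophilin, was above the empty vector in CBR, at 148 and 149 CPM with the empty vector, 65.5 and 67.9 with WT and 243 and 230.3 with CBR (1.83 against WT and 0.67 against the empty vector, adjusted p = 1.14e-08). Of the 185, 117 were not called against the empty vector in CBR, 24 were called below it and 44 above it, 12 of these by 2-fold or more. HSPA7, annotated as a pseudogene, had 13.8 and 12.2 CPM with the empty vector, 3.75 and 4.36 with WT and 24.1 and 23.4 with CBR, but it is nearly identical to HSPA6, so its count is uncertain.

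Kept falls numbered 154. ALDH1A2, which makes retinoic acid, had 56.9 and 64.3 CPM with the empty vector, 4.57 and 5.11 with WT and 6.03 and 6.01 with CBR, a difference of 0.31 ± 0.15 between CBR and WT (adjusted p = 0.0724). AKNA, an AT-hook protein, had 142 and 148 CPM with the empty vector, 20.1 and 21.5 with WT and 19.8 and 21.7 with CBR (-0.01 ± 0.096, adjusted p = 0.967). FN1, encoding fibronectin and chosen after its values were seen, was lowered by both proteins, at 88.6 and 91.2 CPM with the empty vector, 25.7 and 27.1 with WT and 28.6 and 30.7 with CBR (0.16 ± 0.10, adjusted p = 0.162). Among 5 tested cancer-testis MAGE genes 3 were kept falls, but near-identical copies make their counts uncertain.

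Partial and deepened falls were fewer. KCNG1, a potassium channel subunit, had 115 and 119 CPM with the empty vector, 13.9 and 14.1 with WT and 59 and 57.3 with CBR (2.06). LAMP3, a lysosomal membrane protein, had 37.1 and 42.2 CPM with the empty vector, 3.34 and 3.61 with WT and 14 and 13.5 with CBR (1.98). PRLR, the prolactin receptor, had 13.6 and 14.5 CPM with the empty vector, 0.41 and 0.422 with WT and 0.968 and 1.12 with CBR (1.31), a call lost with all 4 empty vector libraries as 1 group (adjusted p = 0.126). The WNT inhibitor DKK1 fell further with CBR, at 7.57 and 7.19 CPM with the empty vector, 2.05 and 3.05 with WT and 0.616 and 0.559 with CBR (-2.13). UNC5B, a netrin receptor, likewise had 338 and 332 CPM with the empty vector, 133 and 133 with WT and 66.4 and 63.3 with CBR (-1.04), with an adjusted p of 0.194 when all 4 empty vector libraries formed 1 group.

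Genes of the extracellular matrix, the protein mesh that cells secrete and hold on to, were mostly lower in CBR than in WT. Among 26 tested collagens 17 were lower and 3 higher in CBR than in WT, with a median log2 difference of -1.02, beside -0.02 over all genes. Of all tested genes 33.1% were called lower and 29.4% higher, the shares beside which all list counts below stand. Of 39 other matrix glycoproteins and elastic fibre genes 23 were lower and 7 higher (median -0.86), and of 21 matrix proteases and their TIMP inhibitors 11 were lower and 5 higher (median -0.65, or -0.20 with genes without a read in a group set at 3 counts). Of 16 WT rises among collagens 6 were lost, 5 reduced and 5 kept, and of 28 among the glycoproteins 9 were lost, 8 reduced and 8 kept, beside 40.4%, 14.2% and 24.8% of all WT rises. Lost members beside TNC and COL12A1 included THBS1, thrombospondin 1, with 150.02 and 153 CPM with the empty vector, 1132 and 1197 with WT and 149.9 and 148 with CBR (log2 fold change -2.97 ± 0.064, adjusted p = 1.16e-22). LOXL2, which cross-links collagen, had 18.1 and 16.4 CPM with the empty vector, 233 and 236 with WT and 35.8 and 32.3 with CBR (-2.78). Both CBR libraries of LOXL2 still lay above both empty vector libraries. ELN, which encodes elastin and was chosen after its values were seen, was reduced by little more than 2-fold, at 0.0907 and 0.0899 CPM with the empty vector, 43.8 and 46.7 with WT and 24.3 and 20.7 with CBR (-1.01).

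Some matrix genes were higher with CBR. COL6A1, a chain of the microfibrillar type VI collagen chosen after its values were seen, rose with CBR (log2 fold change 1.10 ± 0.076, adjusted p = 2.56e-12 against WT) and was not called with WT against the empty vector (adjusted p = 0.808), at 291 and 298 CPM with the empty vector, 285 and 294 with WT and 638 and 603 with CBR. MMP19, a matrix metalloproteinase, had 0.317 and 0.27 CPM with the empty vector, 4.1 and 4.08 with WT and 6.34 and 7.41 with CBR (0.75), a call lost with all 4 empty vector libraries as 1 group (adjusted p = 0.0587). Laminin chains split: LAMB1 was lost, LAMA5 kept, and of 8 tested chains 4 were lower and 3 higher in CBR (median -0.39). Collagen and laminin members therefore moved in both directions within a family.

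Adhesion and cytoskeletal genes were also mostly lower. Focal adhesion adaptors were lower in 19 of 24 tested and higher in 1 (median -0.64), and integrins lower in 10 of 19 and higher in 5 (median -0.25). Of all tested genes 33.1% were lower and 29.4% higher. ITGB8, an integrin subunit that activates TGF-beta, was lost, at 22.2 and 23.7 CPM with the empty vector, 70.6 and 66.8 with WT and 9.15 and 9.93 with CBR (-2.85), in contrast to ITGA5, whose rise was kept. TAGLN, the actin-binding transgelin of smooth muscle, had 6.26 and 6.79 CPM with the empty vector, 67.6 and 66.3 with WT and 4.4 and 3.31 with CBR (log2 fold change -4.11 ± 0.095, adjusted p = 3.9e-22). ACTA2, smooth muscle actin, had 28.5 and 28.7 CPM with the empty vector, 72.7 and 75.3 with WT and 7.08 and 8.07 with CBR, lower in CBR than in both other groups (-3.29 against WT, -1.92 against the empty vector). Mesenchymal markers and transcription factors of the epithelial-mesenchymal transition were lower in 13 of 18 and higher in 1 (median -1.18), and their 13 WT rises comprised 7 lost, 3 reduced and 3 kept, beside 40.4%, 14.2% and 24.8% of all WT rises. CDH2, N-cadherin, chosen after its values were seen, was a lost one, with 0.0907 and 0.045 CPM with the empty vector, 2.11 and 2.06 with WT and 0 and 0.14 with CBR, a ratio of WT over CBR of 30.7 (95% counting interval 10.1 to 151.8).

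Targets of TEAD and YAP, the transcription factors and coactivator at the end of the Hippo pathway, were lower in 19 of 27 and higher in 5 (median -0.63). Of their 13 WT rises 10 were lost, 2 reduced and 1 kept, beside 40.4%, 14.2% and 24.8% of all WT rises. CTGF, a secreted matricellular target, had 15.1 and 15.8 CPM with the empty vector, 32.5 and 38.5 with WT and 2.55 and 3.03 with CBR (log2 fold change -3.67 ± 0.11, adjusted p = 1.7e-19), and CBR lay below the empty vector (-2.47). CYR61, its close relative, had 57.4 and 55.3 CPM with the empty vector, 169 and 170.2 with WT and 60.5 and 58.7 with CBR (-1.51 against WT and 0.08 against the empty vector). WWTR1, the coactivator TAZ, had 109.8 and 107 CPM with the empty vector, 264 and 262 with WT and 98.3 and 97.3 with CBR (-1.43 and -0.15). Both genes thus stood near the level of empty vector replicates 1 and 2 in CBR. In empty vector replicates 3 and 4 CYR61 had 13.9 and 14.8 CPM and WWTR1 78.6 and 77.7, below CBR. TEAD1, one of the DNA-binding partners and chosen after its values were seen, was lower in CBR than in both others without reaching 2-fold, at 584 and 595 CPM with the empty vector, 554 and 567 with WT and 345 and 353 with CBR (-0.68). Members of the AP-1 family were lower in 7 of 14 and higher in 3 (median -0.43), where 33.1% and 29.4% of all tested genes were.

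Epithelial markers gave a mixed picture. Of 21 tested, 5 were higher and 8 lower in CBR than in WT (median -0.28), 5 and 6 of them, respectively, by 2-fold or more. Of all tested genes 29.4% were higher and 33.1% lower, 4.7% and 7.55% by 2-fold or more. The counts at any size thus lie near the shares over all genes. Among the lower ones were keratins of simple epithelia. KRT18 was a lost rise, at 13 and 11.7 CPM with the empty vector, 45.9 and 46.1 with WT and 22.1 and 18.9 with CBR (log2 fold change -1.16 ± 0.078, adjusted p = 1.43e-12). KRT8 was a reduced one, at 0.952 and 0.629 CPM with the empty vector, 5.91 and 4.59 with WT and 2.11 and 1.96 with CBR (-1.35). CLDN7, a tight junction protein, was gained, at 0.589 and 0.584 CPM with the empty vector, 0.293 and 0.281 with WT and 2.11 and 1.77 with CBR (2.74), as was CDH1, E-cadherin, at 0.0907 and 0.135 CPM with the empty vector, 0.234 and 0.281 with WT and 1.63 and 1.49 with CBR (log2 fold change 2.56 ± 0.44, adjusted p = 1.68e-05). CDH1 was chosen after its values were seen, as were GRHL2 and ST14, an epithelial transcription factor and a membrane protease. GRHL2 had 0.272 and 0.315 CPM with the empty vector, 0.0585 and 0.281 with WT and 0.704 and 0.606 with CBR and lost its call without WT replicate 1 (adjusted p = 0.0738). ST14 had 0.136 and 0 CPM with the empty vector, 0.176 and 0.281 with WT and 1.41 and 0.606 with CBR and lost it without CBR replicate 1 (adjusted p = 0.142). The levels of these 4 higher genes were low, even in CBR.

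Interferon-stimulated genes were higher in CBR in 28 of 39 tested and lower in 3, with a median log2 difference of 0.59. Of the 39, 9 were gained rises, 3 were WT falls undone and 5 were kept rises, classes that hold 208, 185 and 354 of all 14220 tested genes. IFI6, an interferon-induced mitochondrial protein, had 19 and 17.3 CPM with the empty vector, 24.5 and 23.3 with WT and 75.5 and 75.7 with CBR (log2 fold change 1.66 ± 0.085, adjusted p = 6.25e-15). IFIT2, which binds foreign RNA, had 47.1 and 44.5 CPM with the empty vector, 41.4 and 37.6 with WT and 103 and 106 with CBR (1.41). OAS2, a sensor of double-stranded RNA chosen after its values were seen, had 0.136 and 0.315 CPM with the empty vector, 0.176 and 0.141 with WT and 1.36 and 1.03 with CBR (2.90). Falls undone in CBR included SAMD9L, an antiviral factor, at 4.67 and 4.72 CPM with the empty vector, 1.23 and 1.36 with WT and 5.68 and 5.36 with CBR (2.08), and XAF1, also chosen after its values were seen, at 5.76 and 6.43 CPM with the empty vector, 0.293 and 0.422 with WT and 4.22 and 3.82 with CBR (3.45). XAF1 was still called below the empty vector in CBR, by less than 2-fold (-0.60, adjusted p = 0.002).

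MHC class I and antigen processing genes were higher in 10 of 12 tested and lower in 1 (median 0.60). NLRC5, the transactivator of MHC class I genes, was gained, at 1.99 and 1.93 CPM with the empty vector, 2.93 and 3.19 with WT and 9.5 and 9.79 with CBR (log2 fold change 1.65 ± 0.17, adjusted p = 3.57e-09). B2M, the light chain of MHC class I, was ordered empty vector, WT, CBR, at 318 and 293 CPM with the empty vector, 463 and 441 with WT and 569.7 and 597 with CBR (0.37). HLA-C, a heavy chain, was below the empty vector with WT and above it with CBR, at 62.4 and 60.5 CPM with the empty vector, 47.1 and 50.2 with WT and 87.4 and 89.8 with CBR (0.86); heavy chain genes share sequence, so reads can be split between them. Of the 14 leukocyte markers, whose cells also carry these genes, 2 had enough reads to test. CD68, a lysosomal protein of macrophages that made up most of the sum given above, had 1.54 and 2.25 CPM with the empty vector, 14.8 and 16.5 with WT and 3.48 and 3.03 with CBR (-2.27). CD4, a T cell coreceptor, went the other way, at 0.0907 and 0.36 CPM with the empty vector, 0.468 and 0.234 with WT and 1.19 and 1.45 with CBR (1.94). The part of these markers in the result was not tested.

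**Figure D4:**
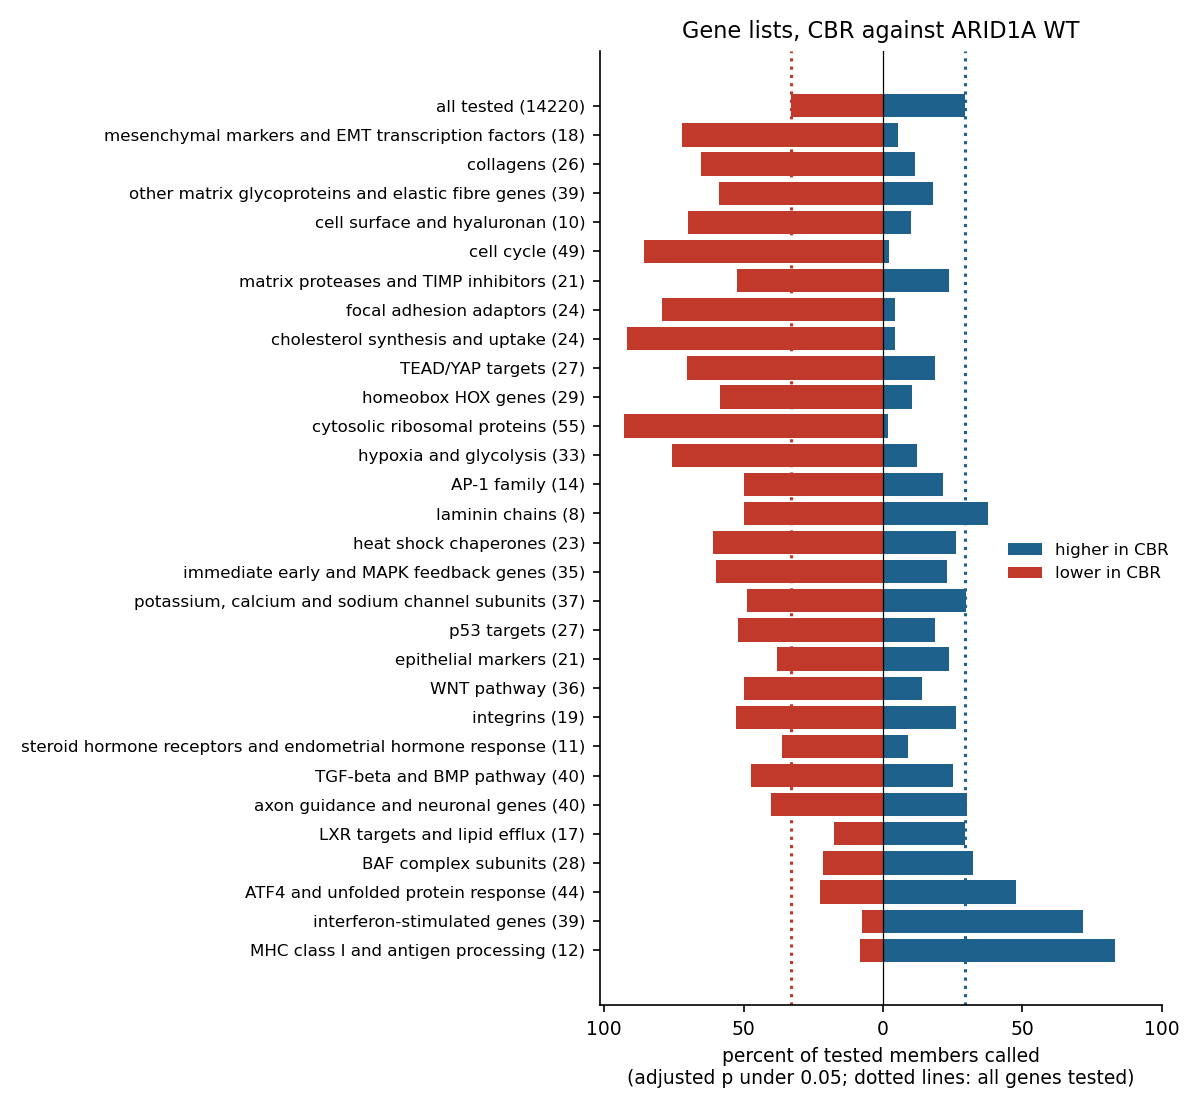
Bars show, for each gene list, the percent of its tested members called higher (right) and lower (left) in CBR than in WT, and dotted lines mark the same over all 14220 tested genes, 29.4% and 33.1%. Interferon and MHC class I lists lie far to the right, and cell cycle, ribosomal protein, cholesterol, focal adhesion and mesenchymal lists far to the left.

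Genes of growth and metabolism were lower in CBR by modest amounts across whole lists. Cell cycle genes were lower in 42 of 49 and higher in 1 (median -0.69). Against empty vector replicates 1 and 2, 36 of the 49 were higher and 2 lower with WT (29.9% and 30.8% over all genes). With CBR 9 were higher and 33 lower (28.7% and 30.8%). RRM2, which supplies deoxynucleotides, had 101 and 101 CPM with the empty vector, 174 and 176 with WT and 71.5 and 75.7 with CBR (log2 fold change -1.25 ± 0.041, adjusted p = 5.42e-19). CCNA2, cyclin A2, had 56.7 and 55.4 CPM with the empty vector, 67.1 and 70.3 with WT and 27.8 and 31.6 with CBR (-1.21). In empty vector replicates 3 and 4, which were kept apart, RRM2 had 243 and 245 CPM, above WT. Beside empty vector replicates 1 and 2, CBR was the lowest and WT the highest group in both genes without overlap. CDKN1A, the p53-induced inhibitor of cyclin kinases, had the same order, at 84.4 and 85.7 CPM with the empty vector, 128 and 139 with WT and 62.4 and 62.8 with CBR (-1.09), but its call was lost when all 4 empty vector libraries formed 1 group (adjusted p = 0.149).

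Cytosolic ribosomal protein genes were lower in 51 of 55 and higher in 1 (median -0.50). With WT 15 were higher and 13 lower than the empty vector, and with CBR 48 were lower, where 29.9%, 30.8% and 30.8% of all genes were. The WT counts lie near or under these shares. RPL7 had 561 and 544 CPM with the empty vector, 746 and 671 with WT and 326 and 342 with CBR (-1.08); processed pseudogenes of this family may take or add reads. Cholesterol synthesis and uptake genes were lower in 22 of 24 and higher in 1 (median -0.64), beside 23 higher with WT than with the empty vector and 15 with CBR (29.9% and 28.7% over all genes). Hypoxia and glycolysis genes were lower in 25 of 33 and higher in 4 (median -0.45), with LDHA, lactate dehydrogenase A, at 485 and 492 CPM with the empty vector, 807 and 824 with WT and 409.7 and 424 with CBR (-0.97).

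Targets of ATF4, the transcription factor of amino acid and unfolded protein stress, were found in both directions between the proteins, with 21 of 44 higher and 10 lower in CBR (median 0.09). Most were below the empty vector with both: 35 were lower with WT and 34 with CBR (30.8% over all genes in each). Of 21 members that WT lowered at least 2-fold, 11 were kept falls, 2 undone and 1 reduced, beside 27.9% kept and 33.5% undone over all WT falls. ASNS, asparagine synthetase, chosen after its values were seen, had 755 and 729.7 CPM with the empty vector, 214 and 209 with WT and 269 and 272 with CBR (log2 fold change 0.35 ± 0.045, adjusted p = 1.8e-07), so most of the fall was also there with CBR. ATF5 and CEBPG, given above, were those classed as undone, though ATF5 in CBR stayed between WT and the empty vector.

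Developmental and signalling lists held more genes lower than higher in CBR, to differing degrees. Over all tested genes 33.1% were called lower and 29.4% higher. HOX genes were lower in 17 of 29 and higher in 3 (median -0.59), WNT pathway genes lower in 18 of 36 and higher in 5 (median -0.27), and TGF-beta and BMP pathway genes lower in 19 of 40 and higher in 10 (median -0.18). WNT7B, a WNT ligand, was lost, at 0.0453 and 0.0899 CPM with the empty vector, 4.74 and 3.7 with WT and 0.044 and 0.14 with CBR. Axon guidance and neuronal genes were lower in 16 of 40 and higher in 12, near the shares over all genes. Channel subunits were lower in 18 of 37 and higher in 11. Heat shock chaperones were lower in 14 of 23 and higher in 6, p53 targets lower in 14 of 27 and higher in 5, immediate early and MAPK feedback genes lower in 21 of 35 and higher in 8, and LXR and lipid efflux genes lower in 3 of 17 and higher in 5.

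The classes were then read in libraries that the rule had not used. ARID1B WT, the ARID1B mutant S320_G327del and a hybrid of ARID1A with a DDX4 IDR (intrinsically disordered region) were compared with empty vector replicates 3 and 4, which share no library with CBR, WT or empty vector replicates 1 and 2 but are shared by these 3 comparisons. ARID1B WT raised 7.26% of all tested genes at least 2-fold. It raised 373 of the 577 lost genes (64.6%), 189 of the 203 reduced (93.1%), 175 of the 354 kept (49.4%), 16 of the 31 enhanced (51.6%) and 23 of the 208 gained (11.1%), and 1.42% of genes in no class. Most lost genes thus rose with the full-length paralog. The 11.1% of gained genes lay near the 7.26% of all tested genes, which include the WT rises, and above the 1.42% of genes in no class. MMP2 had 0.131 and 0.0557 CPM in these empty vector libraries and 224 and 229.9 with ARID1B WT, and SMPDL3B had 1.77 and 1.23 and 3.08 and 3.16.

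The ARID1B mutant raised 62.6% of lost, 92.6% of reduced, 46.0% of kept and 13% of gained genes, beside 7.86% of all genes. The hybrid raised 5.04% of all genes at least 2-fold, 112 of the 577 lost genes (19.4%), 115 of the 203 reduced, 111 of the 354 kept (31.4%), 23 of the 31 enhanced (74.2%) and 69 of the 208 gained (33.2%). Median log2 changes with the hybrid were 0.66 for lost, 2.06 for reduced, 0.83 for kept and 0.74 for gained genes, beside 1.89, 4.18, 1.26 and 0.24 with ARID1B WT. Whether the hybrid and ARID1B WT differ over these classes was not tested.

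The falls were read in the same way. ARID1B WT lowered 1.5% of all genes at least 2-fold, and 19 of the 185 undone falls (10.3%) and 34 of the 154 kept falls (22.1%). With the ARID1B mutant these were 23 (12.4%) and 39 (25.3%) beside 2.47% of all genes, and with the hybrid 10 (5.41%) and 32 (20.8%) beside 1.81%.

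**Figure D5:**
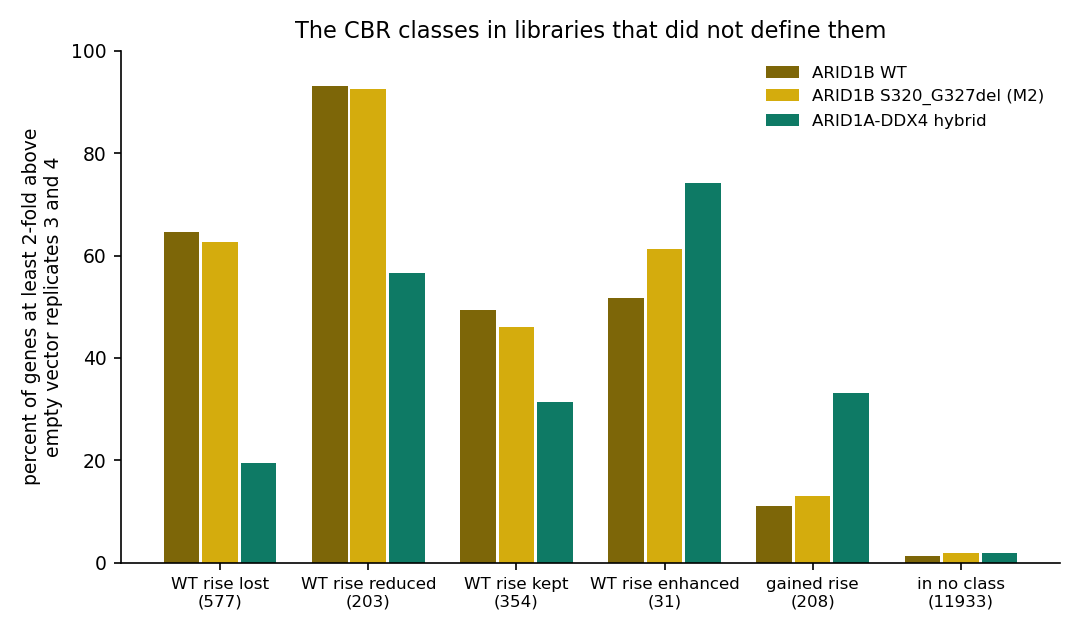
For each class defined from CBR, WT and empty vector replicates 1 and 2, bars give the percent of its genes raised at least 2-fold by ARID1B WT, the ARID1B mutant and the DDX4 hybrid over empty vector replicates 3 and 4, with the genes in no class at the right. Lost genes stand at 64.6%, 62.6% and 19.4%, and gained genes at 11.1%, 13% and 33.2%.

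Other ARID1A forms shared the same empty vector libraries with CBR and WT, so their values are given side by side only. The delIDR1 truncation mutant raised 7.49% of all genes at least 2-fold, and 28.8% of the lost, 95.1% of the reduced, 90.4% of the kept and 59.6% of the gained genes. DBDmut, which is labelled as mutated in the ARID domain, raised 7.72% of all genes, and 63.8%, 91.1%, 68.6% and 7.21% of these classes. MMP2 had 3.54 and 2.92 CPM with delIDR1 and 1.01 and 1.01 with DBDmut. LAMB1 had 24.4 and 26.7 CPM with delIDR1 and 147 and 160.4 with DBDmut. SYNPO had 93.5 and 93.8 CPM with delIDR1 and 40.7 and 41.1 with DBDmut. The rise of SYNPO was present with both. SMPDL3B had 12.3 and 11.4 CPM with delIDR1 and 3.55 and 3.37 with DBDmut. IFI6 had 51.3 and 50.9 CPM with delIDR1 and 25.4 and 21.5 with DBDmut. CTGF had 9.91 and 10.1 CPM with delIDR1 and 23.1 and 26.5 with DBDmut.

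Lost, kept and gained genes differed in the base composition of their transcripts. The median GC content of the longest annotated transcript was 48.4% for lost, 53.8% for reduced, 56.4% for kept and 56.6% for gained genes, beside 49.0% over all tested genes, with transcripts found for 96.6% of them. Over 4 bins of equal size of all tested genes from low to high GC, the median log2 difference between CBR and WT was -0.15, -0.08, 0.04 and 0.17. Genes at least 2-fold higher in CBR made up 2.21%, 3.67%, 4.89% and 7.36% of these bins and those 2-fold lower 6.11%, 8.53%, 8.47% and 7.07%. GC content thus moved with the rises, and less with the falls, and its part in the result was not tested.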

How the data were processed

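Gene counts of 28 AN3CA libraries, deposited by the authors, were used; the counts are whole, not normalized, and hold 3 strand columns per file with 4 lines for unassigned reads, which stayed out of library sizes. Per the submitters' processing notes, bcl2fastq, STAR 2.5.2b and Bowtie2 2.29 were used with build hg19. The annotation and counting options are not given in the sources used here. The column of reads antisense to the gene as sequenced, which held most reads, was taken for every library; reads mapping to several places were 8.78% to 9.7% of all in the 6 libraries.

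Counts were fitted with edgeR 4.0.16 (limma 3.58.1, R 4.3.3): TMM scaling, the default filter on low counts (14220 of 26346 genes kept), 14 groups from 12 constructs, the empty vector split at 90% of stranded reads on the counted strand because its 4 libraries fell into pairs by this share, and quasi-likelihood F tests, two-sided, on 14 residual degrees of freedom. Genes with an adjusted p under 0.05 were called, and 2-fold means a called log2 change of at least 1. Standard errors are the size of the change divided by the square root of F. They can lie under the counting error for genes near 0, for which ratios with exact 95% intervals or bounds at a floor of 3 counts are given, covering counting error only. Classes were computed from 3 contrasts. Replicates were compared first: none of the pairs agreed within counting noise (chi-square per degree of freedom of 2.76 for CBR, 1.86 for WT and 2.91 for the empty vector).

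The members, 33 gene lists and tests were chosen with earlier results of these data known. Named genes are the BAF subunits, the 15 largest rises and falls, 6 per class and up to 4 called members per list. For each list, the kept member with the largest WT rise was also named, if any. The largest changes and class members had an average log2 CPM of at least 1. Their CBR libraries lay beyond both WT libraries, for kept classes beyond both empty vector libraries, and for gained classes beyond all of these. List members had no such filter. Others are said to be chosen after their values were seen. Promoters came from RefSeq (GRCh38.p14), matched by symbol, and transcripts from GENCODE. DESeq2 1.42.0 gave an alternative fit. Scripts ran in Python 3.11.15 with pandas 2.3.3 and scipy 1.17.1, and the fit was tested on simulated data.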

Additional observations from a re-analysis of the deposited data

How the results depend on the processing

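Across 15 other fits, 189 of the 215 called genes named by rule or by choice kept their direction and their call in each. DESeq2 called 556 genes higher and 1017 lower by 2-fold, 556 and 1000 of them shared with the main counts. A minimum average log2 CPM of 1 left 299 higher and 563 lower, with 276 rises lost, 93 reduced, 184 kept and 9 enhanced, falls 67 undone, 6 reduced, 81 kept, 2 enhanced and 118 other, and gains of 74 rises and 56 falls; it tests fewer genes. All 4 empty vector libraries as 1 group gave 94 falls undone, 3 reduced, 97 kept, 2 enhanced and 115 other, and 151 gained falls; the cause was not tested. Class thresholds of 1.5-fold gave rises of 911 lost, 343 reduced, 542 kept and 94 enhanced, falls of 578, 51, 446, 40 and 409 other, and gains of 479 rises and 395 falls. At 4-fold these were 294, 77, 196 and 3 with 173 other rises, falls of 35, 5, 35, 0 and 38 other, and gains of 41 and 20. Leaving out 1 library at a time gave 615 to 671 genes higher and 1051 to 1124 lower by 2-fold, 3490 to 4074 higher and 4232 to 4845 lower at any size, 569 to 622 rises lost, 165 to 198 reduced, 312 to 350 kept, 24 to 32 enhanced and 253 to 330 other, falls of 156 to 190 undone, 18 to 22 reduced, 159 to 167 kept, 4 to 7 enhanced and 180 to 218 other, and gains of 191 to 218 rises and 90 to 107 falls. Some genes that had not passed the test between CBR and WT changed sign. AKNA stood at 0.0039 with the CPM minimum, and SYNPO at -0.011 without a filter and -0.0156 with strand ignored. Without 1 library in turn, the values ranged from -0.085 to 0.049 for AKNA, from -0.014 to 0.054 for SYNPO, from -0.0158 to 0.103 for SLC15A2, from -0.26 to 0.22 for HYAL1, from -0.37 to 0.52 for STC1, from -0.097 to 0.0060 for BRD7 and from -0.16 to 0.015 for DPF1. With the replicate number as a block in a fit of 6 libraries, 645 genes were higher and 1004 lower by 2-fold. The numbers only name libraries: deviations of same-numbered libraries correlated at -0.017 (CBR and WT), -0.031 (CBR and empty vector) and 0.125 (WT and empty vector) over 11501 genes. With 2 libraries per group, genes under 3 counts in a group give only bounds.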
